A study of Mus musculus with 5 samples.

Results

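Genes of pre-mRNA splicing and RNA unwinding were followed in mouse bone marrow cultures, labelled as mesenchymal stem cells, with and without Bmal1. The set was taken by gene symbol alone: every listed gene whose symbol begins with Hnrnp, Srsf, Snrp, Sf3a or Sf3b, Ddx or Dhx, leaving out 2 named helicase genes and pseudogenes. It held 101 of the 14161 genes listed in any library: 20 Hnrnp, 11 Srsf, 12 Snrp, 9 Sf3, 33 Ddx and 16 Dhx genes. Total RNA was sequenced in 5 libraries: the Bmal1-knockout group had 3 and the wild type group 2. Both groups were C57BL/6, with marrow taken from the femur at 6 to 8 weeks of age and cultures at passages 1 to 3. The labels do not say how the knockout was made or whether libraries came from separate animals, so p-values measure the spread between these libraries, which may be technical. The comparison asks which RNA levels differ between the groups. Whether a gene that differs depends on BMAL1 was not tested. BMAL1 is the partner of CLOCK in the transcription factor at the core of the circadian clock.

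Heterogeneous nuclear ribonucleoproteins (the Hnrnp genes) coat nascent transcripts and steer splice site choice, export and stability. SR proteins (Srsf) bind exonic enhancers and recruit the splicing machinery, while Sm proteins and snRNP proteins (Snrp) and the SF3 complexes (Sf3) build the small nuclear ribonucleoproteins that recognise the splice sites and the branch point. DEAD-box (Ddx) and DEAH-box (Dhx) proteins use ATP to remodel RNA and RNA-protein complexes, in the spliceosome, in ribosome assembly, in translation and in the sensing of viral RNA. BMAL1 with CLOCK binds the E-box, CACGTG.

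Promoter stretches of the 3 genes whose RNA differed between the groups, described further on, are given first, from RefSeq windows of 250 bases before to 50 after a start site (GRCm38.p6, the assembly of mm10). Capitals mark CCAAT boxes in Hnrnpab, an ETS motif CCGGAAG across the start of Ddx27, and matches to the interferon response motif (GAAA and GAAAC with any 2 bases between them) in Ddx60. Only the motif named is marked for each gene. CCAAT, on either strand, was held by the windows of all 3 genes, and TATAAA by those of Hnrnpab and Ddx60. The Hnrnpab stretch is chr11:51606882-51606981 (minus strand), that of Ddx27 chr2:167015299-167015328 (plus strand) and that of Ddx60 chr8:61927987-61928086 (plus strand).
Hnrnpab: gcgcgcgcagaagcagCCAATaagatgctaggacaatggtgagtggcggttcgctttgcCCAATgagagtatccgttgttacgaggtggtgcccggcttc
Ddx27: cactcgctacgtCCGGAAGtggctgcttct
Ddx60: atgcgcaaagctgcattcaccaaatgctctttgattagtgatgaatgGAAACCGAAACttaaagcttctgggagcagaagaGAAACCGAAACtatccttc
The matches in Ddx60 began 53 and 19 bases before the start site of its window. That site lies inside the gene, which begins at 61928073, within the stretch printed. A window was given for 89 members. The interferon response motif, on either strand, was held by 2 of them, Ddx49 and Ddx60 (2.2%), and by 0.94% of the 27025 genes with a window. Among genes tested for a difference, it was held by 2 of 45 members (4.4%) and by 1.6% of all 2917.

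Members that hold the E-box CACGTG (a palindrome, so the same on both strands) are shown because that is the sequence BMAL1 binds. It lay in the window of 11 of the 89 members (12.4%), against 8.09% of all genes with a window and 12.4% of the 2917 genes that had a window and were tested for a difference. Of those 11 members 7 were tested (15.6% of the 45 tested members with a window) and 0 passed the test. A window can belong to a start site inside the gene. Ddx42 and Hnrnpf, both on the plus strand, begin at 106216887 and 117900340, well upstream of the stretches given for them here. The stretches of the other 3 genes printed here also lie inside the gene, nearer to its start. Hnrnpa3, on the plus strand, begins at 75659105. Ddx5 and Hnrnpd, on the minus strand, begin at their upper ends, 106789185 and 99979130. The stretches of the 5 tested members with the E-box before such a start site are printed, with the box in capitals. They are chr11:106788920-106788949 (minus) for Ddx5, chr11:106230506-106230535 (plus) for Ddx42, chr5:99978953-99978982 (minus) for Hnrnpd, chr2:75659229-75659258 (plus) for Hnrnpa3 and chr6:117907713-117907742 (plus) for Hnrnpf.
Ddx5: cctgggtccgatCACGTGatgaggccaagc
Ddx42: tcccccatgatgCACGTGggatttttgatc
Hnrnpd: gcgctccggagcCACGTGaccgggacgcgc
Hnrnpa3: cggatagcacatCACGTGgtgactggcccc
Hnrnpf: cgagcgggcgctCACGTGgcccgaggcgcc
For these 5 genes the log2 fold changes of knockout over wild type ran from -0.16 for Hnrnpf to 0.10 for Hnrnpd, with 0.01 for Ddx5, -0.14 for Ddx42 and -0.16 for Hnrnpa3. In the other tested members with an E-box, whose match is not before the start site, it was -0.32 for Hnrnph2 and 0.09 for Hnrnpm.

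The other motifs were also searched on both strands. CCGGAAG, the core bound by ETS factors, lay in 35 of the 89 members (39.3%) and in 9.93% of all genes. Among tested genes it lay in 16 of 45 members (35.6%) and in 20.8% of all 2917. CCAAT lay in 44 members (49.4%, against 41.06% of all genes), and in 57.8% of tested members against 41.1% of all tested genes. TATAAA lay in 12 members (13.5%, against 15.67% of all genes), but among tested genes in 17.8% of members against 9.8% of all. The median share of G and C was 60.3% in the 117 windows of members, tested or not, and 61.3% in the 3764 windows of all tested genes, tested members included. A match is a run of letters in a window and was not measured as a bound site.

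The libraries were shallow, with 226695, 237088 and 281990 expected counts in knockout 1 to 3 and 243072 and 211623 in wild type 1 and 2. All members together took 0.699% to 0.805% of the counts of a library. Arntl, the gene that encodes BMAL1 (chromosome 7, 113178471 to 113314126), had 4, 1 and 2 counts in the knockout against 5 and 0 in wild type libraries. Its summed level was 0.843 times the wild type level (exact Poisson 95% interval 0.230 to 3.37, counting error only, as for all such intervals here), so it does not check the labels. Markers of several cell types moved with the genotype; calls among them are from the edgeR test described with the members. All 16 macrophage markers were listed, with a sum of 10301 to 11473 CPM (counts scaled to a common library size over the tested genes) in the knockout and of 16700 to 16833 in the wild type. Of the 16 tested, 15 had a negative log2 fold change and 8 passed the test, all lower. The 12 stromal markers, all listed, summed to 14267 to 15163 CPM in the knockout and 5469 to 5480 in the wild type. Of 10 tested, 8 had a positive log2 fold change and 6 passed the test, all higher. The macrophage sum was above the stromal sum in the wild type and below it in the knockout. Sums over different genes do not measure shares of cells. Mast cell and megakaryocyte markers (3 of 4 listed) summed to 207 to 239 CPM in the knockout and 346 to 367 in the wild type, with the 1 tested, Pf4, called lower. Neutrophil markers (3 of 6 listed) summed to 19.2 to 56.6 CPM against 65.8 to 90.4, and endothelial markers (5 of 5) to 128 to 178 against 165 to 197. Of the 5 erythroid markers 0 were listed, and B, T and NK cell markers summed to at most 33.6 CPM. In such bulk samples fewer cells of a type and less RNA per cell cannot be told apart, and the part of the marker difference in the results on splicing and helicase genes was not tested.

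Few differences between knockout and wild type were called among the splicing and helicase genes that could be tested. Of the 101 members 50 had enough counts for the test (edgeR's quasi-likelihood test with Benjamini-Hochberg adjustment over all tested genes, threshold 0.05), and 3 of these passed it. Hnrnpab and Ddx27 were higher in the knockout and Ddx60 was lower. The share called was 6.0% of the tested members, where 16.3% of all 3710 tested genes were called, 8.19% higher and 8.14% lower. At an unadjusted p under 0.05 there were 4 members, where 27.6% of all tested genes reached that level. The median log2 fold change of the tested members was -0.03, with 23 above and 27 below 0, and that of all tested genes 0.01. The median size of the log2 fold change, whatever its sign, was 0.16 in the members and 0.41 in all tested genes, and 39 of the 50 members lay within 0.5 of 0. In 10 members the CPM of the groups did not overlap, 5 each way, against 42.7% of all tested genes.

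**Figure D1:**
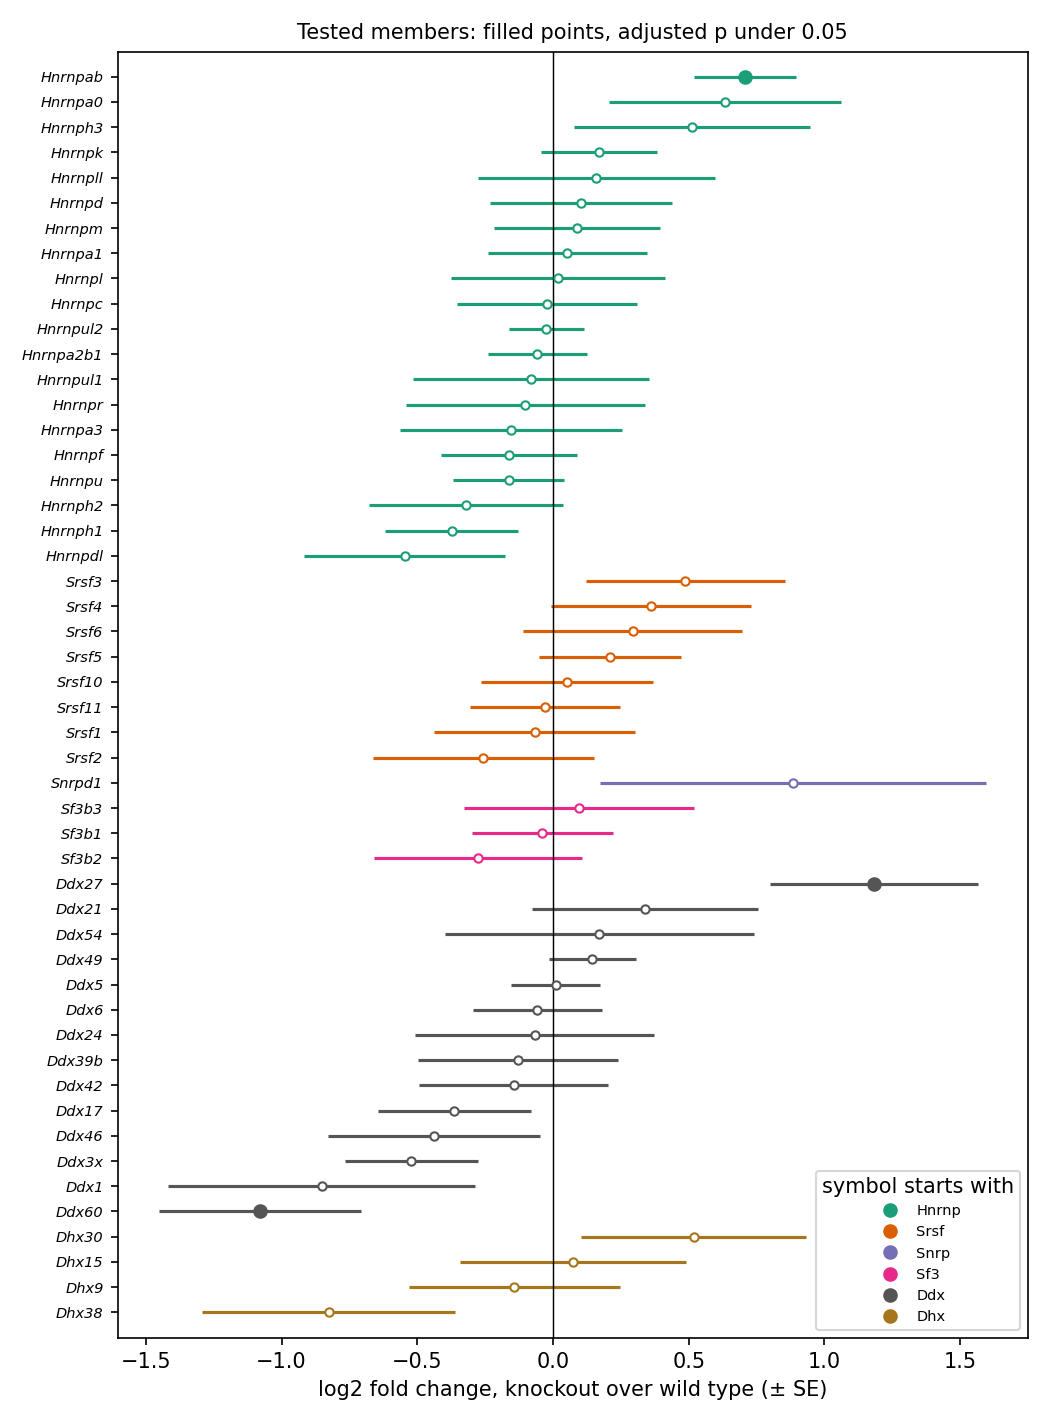
Log2 fold change of knockout over wild type (x axis, points with SE) for the 50 tested members, grouped by family, with filled points for adjusted p under 0.05. Hnrnpab at 0.71, Ddx27 at 1.18 and Ddx60 at -1.08 are filled, and 39 of the 50 points lie within 0.5 of 0.

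Hnrnpab, an RNA-binding protein of the A/B group of hnRNPs (Entrez gene 15384, chromosome 11, 51600100 to 51606881, minus strand), had the smallest standard error of the 3 calls. It had 114, 95 and 94 counts in the knockout against 54 and 58 in wild type libraries. Every knockout library lay above both wild type libraries, at 460 ± 84.0 CPM (SD, n = 3) against 281 ± 38.6 (SD, n = 2). The log2 fold change was 0.71 (SE 0.19, edgeR adjusted p = 0.00248), or 1.63-fold, and the summed counts gave the same ratio of 1.63 (95% interval 1.31 to 2.04). Without wild type replicate 1 the call was lost, at a log2 fold change of 0.55 (edgeR adjusted p = 0.204), and with limma on log2 FPKM (limma adjusted p = 0.0927). Of its exon bases 809 lie opposite exons of Phykpl, which had 5, 3 and 3 counts in the knockout against 6 and 3 in wild type libraries. Expected counts of both genes were whole in every library, so the deposited counts show no reads shared out between them. The sources used here do not give the strand setting, and whether each read went to the right gene of the pair was not tested.

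Ddx27, a nucleolar helicase of ribosome assembly (Entrez gene 228889, chromosome 2, 167015313 to 167034945, plus strand), had the largest positive log2 fold change of the 50 tested members. Its expected counts were 15.02, 31.53 and 33.28 in the knockout against 9.23 and 11.82 in wild type libraries. Knockout 1 lay close to the wild type libraries and knockout 2 and 3 well above them, so the groups did not overlap but were uneven. The mean level was 119 ± 41.9 CPM (SD, n = 3) against 53.0 ± 15.2 (SD, n = 2). The log2 fold change was 1.18 (SE 0.38, edgeR adjusted p = 0.0165), with a ratio of summed counts of 2.29 (95% interval 1.41 to 3.91). Leaving out 1 library ended the call for knockout replicate 2 (edgeR adjusted p = 0.129) and 3 (0.0786) and for wild type replicate 1 (0.309) and 2 (0.0542), and so did no filter (0.0534), DESeq2 (0.139) and limma on log2 FPKM (0.0945). The deposited gene joins 1 RefSeq transcript with 6 that are not in RefSeq, and its expected counts were not whole in any library, as happens where reads are shared out between genes. Its downstream neighbour Znfx1 (chromosome 2, 167035790 to 167063015), itself a helicase gene outside the set, also had counts that were not whole in all 5 libraries. Znfx1 had 250, 287 and 329 counts in the knockout against 212 and 194 in wild type libraries, a log2 fold change of 0.36 (SE 0.13, edgeR adjusted p = 0.0322). Which genes share reads with Ddx27 was not established.

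Ddx60, an interferon-induced helicase of antiviral defence (Entrez gene 234311, chromosome 8, 61928073 to 62037704, plus strand), was the member that fell. It had 8, 17 and 11 counts in the knockout against 21 and 25 in wild type libraries. All knockout libraries lay below both wild type libraries, with knockout 2 nearest to them. Its level was 54.6 ± 22.9 CPM (SD, n = 3) against 116 ± 24.2 (SD, n = 2), a log2 fold change of -1.08 (SE 0.37, edgeR adjusted p = 0.0276) and 2.11-fold lower. The ratio of summed counts was 0.472 (95% interval 0.296 to 0.745). Leaving out 1 library ended the call for knockout replicate 1 (edgeR adjusted p = 0.124) and 3 (0.120) and for wild type replicate 1 (0.0624) and 2 (0.335), and so did no filter (0.116), DESeq2 (0.178) and limma on log2 FPKM (0.186). Another antiviral helicase of the set, Dhx58, was too low to test, with 6, 5 and 10 counts in the knockout against 5 and 4 in wild type libraries. Ifih1, the sensor of long double-stranded RNA and not a member, had 12, 10 and 10 counts against 23 and 14, a log2 fold change of -0.92 that did not pass the test (edgeR adjusted p = 0.0962). The 16 macrophage markers given above summed to less in the same libraries as Ddx60, and their part in its fall was not tested.

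**Figure D2:**
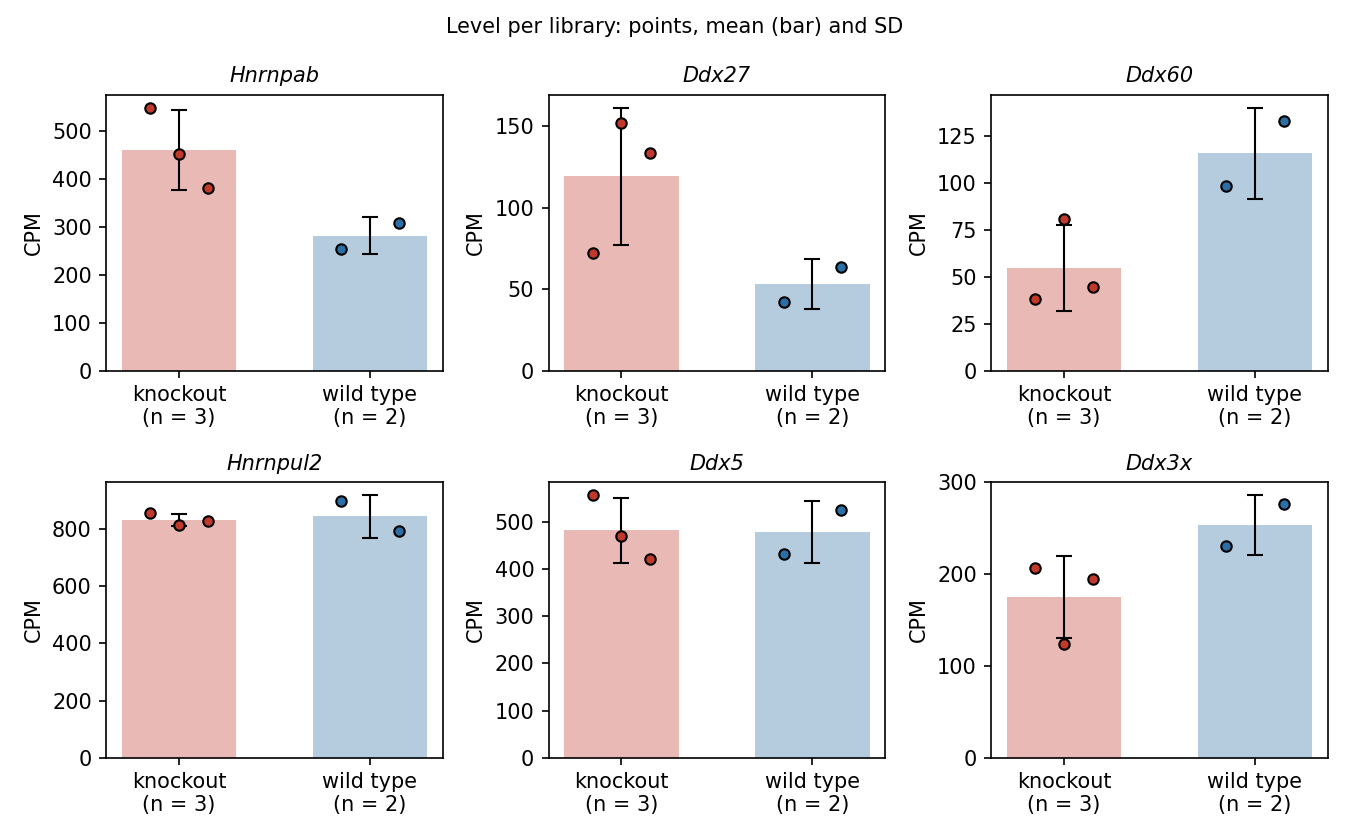
CPM (y axis) of 6 members in each library (points), with the mean (bar) and SD, for 3 knockout and 2 wild type libraries. The groups are apart for Hnrnpab, Ddx27, Ddx60 and Ddx3x and overlap for Hnrnpul2 and Ddx5.

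**Figure D3:**
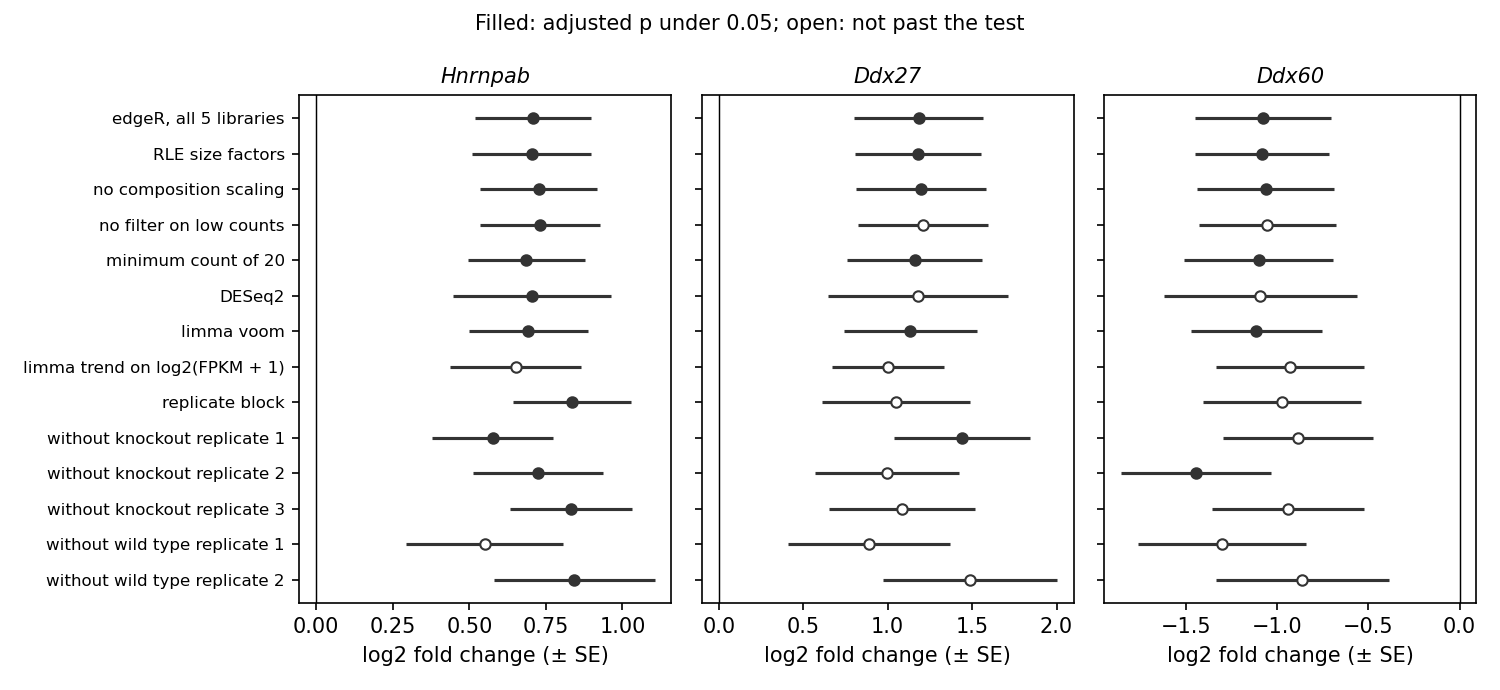
Log2 fold change with SE of the 3 called members (x axis) under the edgeR test of all 5 libraries and each of 13 other settings (y axis), filled where adjusted p was under 0.05. Hnrnpab was past the test in 11 of the 13 other settings, and Ddx27 and Ddx60 in 5 each, with the sign kept in all 13 for each gene.

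Of the Hnrnp genes, all 20 were tested, 1 rose and 19 did not pass. Hnrnpul2, related to the nuclear scaffold protein hnRNP U, had the highest counts of any member, 178, 171 and 205 in the knockout against 191 and 149 in wild type libraries. Its groups overlapped, at a log2 fold change of -0.02 (SE 0.14), and its expected counts were not whole in 3 libraries. The ratio of its summed counts was 0.982 with an interval of 0.856 to 1.13, so a difference as large as that of Hnrnpab lay outside the interval. Hnrnpa2b1, which packages nascent transcripts and reads sorting signals in RNA, had 83, 72 and 91 counts against 75 and 79 (log2 fold change -0.06, SE 0.18). Hnrnpk, which binds C-rich RNA, had 66, 60 and 70 counts against 54 and 51. Its CPM did not overlap between the groups, but its log2 fold change was 0.17 (SE 0.21, edgeR adjusted p = 0.653). The lowest fold change of the family was that of Hnrnpdl, a close relative of hnRNP D, with 16, 15 and 14 counts against 26 and 14. Wild type 1 alone stood above the other libraries, and the log2 fold change was -0.55 (SE 0.37, edgeR adjusted p = 0.34).

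Fold changes of other hnRNPs lay on both sides of 0. Hnrnpa1, a founding hnRNP with many processed copies in the genome, had counts that were not whole in any library and is uncertain for that reason, with 21, 30 and 42 counts against 36 and 18 (log2 fold change 0.05, SE 0.29). The wild type libraries lay at both a high and a low level. Hnrnpa0 had 15, 16 and 18 counts against 12 and 7 (log2 fold change 0.63, SE 0.43) and Hnrnph3 had 12, 17 and 16 against 12 and 7 (0.51, SE 0.44). Hnrnph1, which binds G-rich splicing elements, had 39, 39 and 46 against 56 and 41 (-0.37, SE 0.25). All 3 had groups whose CPM did not overlap and none passed the test, with edgeR adjusted p-values of 0.341, 0.479 and 0.324. The family as a whole summed to 3686 ± 98.2 CPM (SD, n = 3) in the knockout and 3600 ± 198 (SD, n = 2) in the wild type, a ratio of 1.02.

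Of the 11 SR protein genes 8 were tested and 0 passed; 0 of the 8 had an unadjusted p under 0.05 in edgeR. Srsf5, the SR protein gene with the highest level, had 46, 47 and 37 counts in the knockout against 34 and 34 in wild type libraries (log2 fold change 0.21, SE 0.26). Srsf3, the smallest SR protein and an exporter of mRNA, had 23, 23 and 22 counts against 8 and 21. Wild type 1 alone was low, and the log2 fold change was 0.49 (SE 0.37, edgeR adjusted p = 0.399). Srsf4 had 21, 18 and 25 counts against 19 and 11 (0.36, SE 0.37), Srsf11 had 35, 33 and 34 against 38 and 25 (-0.03, SE 0.28), and Srsf2, a regulator of exon inclusion, had 10, 14 and 15 against 12 and 16 (-0.26, SE 0.41). Srsf1, the founding member, lay at -0.07 (SE 0.37). Summed over the 11 genes, the CPM of every knockout library (1047, 970 and 898) was above that of both wild type libraries (860 and 882), by 1.12 times on the means. The nearest pair, knockout 3 and wild type 2, differed by less than the SD of 74.6 CPM between the knockout libraries.

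The Snrp genes mostly encode small proteins, and 1 of 12, Snrpd1, had enough counts for the test. Snrpd1, a core Sm protein, had 11, 4 and 13 counts in the knockout against 5 and 4 in wild type libraries. Knockout 2 was no higher than the wild type libraries, and the log2 fold change was 0.88 (SE 0.71, edgeR adjusted p = 0.447). Among the untested Sm genes, Snrpg had 7, 6 and 2 counts against 2 and 0, and Snrpf 5, 5 and 5 against 1 and 1. Each of these pairs of sums was 15 against 2, a ratio of 4.52 with an interval from 1.05 to 40.7. That interval reached below 1 for Snrpf when knockout 1, knockout 2 or either wild type library was left out, and for Snrpg when knockout 1, knockout 2 or wild type 2 was. Snrpd3 had 7, 6 and 8 counts against 5 and 2, a ratio of 1.81 with an interval from 0.740 to 5.03. The summed level of the 12 genes was 332, 238 and 263 CPM in the knockout against 240 and 117 in wild type libraries. Wild type 2, the library with the fewest counts, was alone at the low end. The ratio of the means was 1.56, and it was 1.16 without wild type 2 and 2.37 without wild type 1.

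Of the 9 genes of the SF3 complexes, which recognise the branch point, 3 were tested and 0 passed, and 0 had an unadjusted p under 0.05 in edgeR. Sf3b1, the scaffold of SF3b that contacts the branch point, had 37, 37 and 49 counts in the knockout against 40 and 36 in wild type libraries (log2 fold change -0.04, SE 0.26). Its CPM lay between 176 and 198 in all 5 libraries. Sf3b2 had 13, 20 and 12 counts against 17 and 16 (-0.28, SE 0.38) and Sf3b3 12, 12 and 17 against 11 and 12 (0.10, SE 0.42). Sf3b5, a small SF3b subunit, had 9, 1 and 3 counts against 4 and 4 and was not tested. The 9 genes summed to 429 ± 14.0 CPM (SD, n = 3) in the knockout and 426 ± 37.1 (SD, n = 2) in the wild type.

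**Figure D4:**
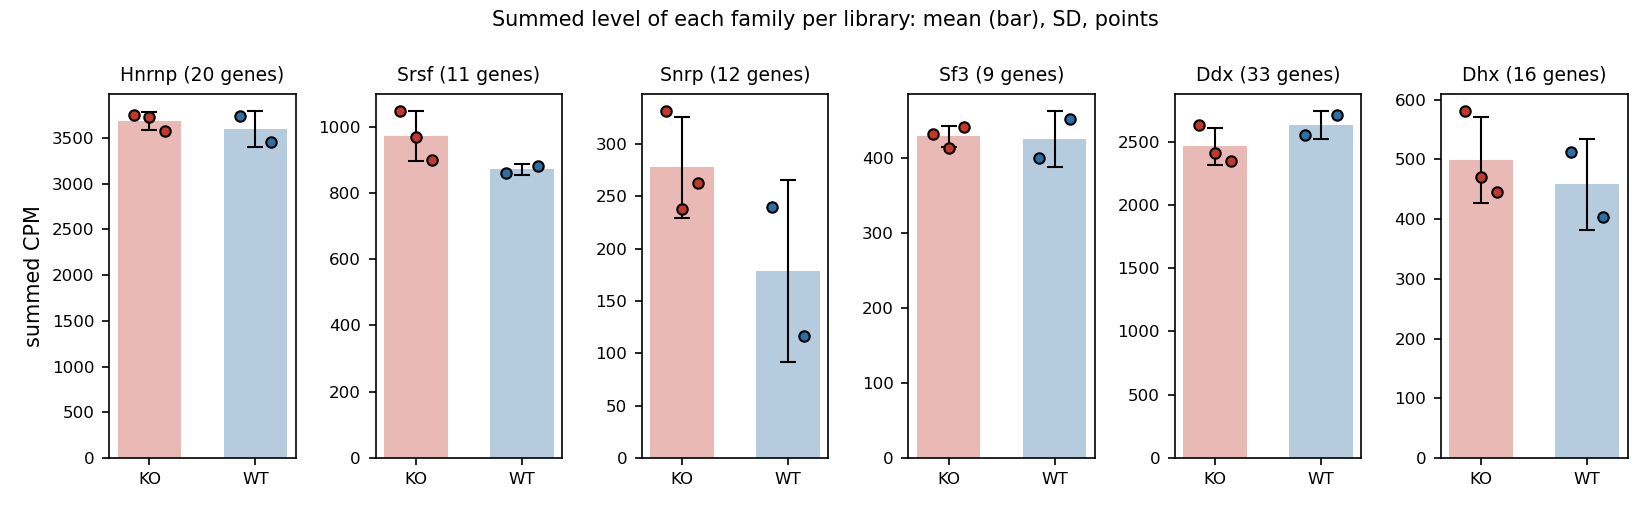
Summed CPM (y axis, from 0) of the members of each family per library (points), with the mean (bar) and SD, for 3 knockout (KO) and 2 wild type (WT) libraries. Hnrnp and Sf3 sums overlap closely, Srsf sums are 898 to 1047 in the knockout and 860 to 882 in the wild type, and the Snrp sum of wild type 2 stands low at 117.

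Of the 33 genes with a Ddx symbol 14 were tested, with 1 higher, 1 lower and 12 that did not pass. Ddx5, a coactivator and splicing helicase that also acts in microRNA processing, had 116, 99 and 104 counts in the knockout against 92 and 99 in wild type libraries. The groups overlapped, at a log2 fold change of 0.01 (SE 0.17). Its close paralog Ddx17 had 34, 20 and 33 counts against 49 and 19, with wild type 1 the highest and knockout 2 and wild type 2 both low (-0.36, SE 0.28, edgeR adjusted p = 0.422). Ddx3x, a translation and antiviral helicase on the X chromosome, had 43, 26 and 48 counts against 49 and 52. Its groups did not overlap, and it was the fourth member with an unadjusted p under 0.05, with a log2 fold change of -0.52 (SE 0.25) that did not pass the test (edgeR adjusted p = 0.136). The interval of the ratio of its summed counts, 0.530 to 0.920, reached 1.06 without knockout 2 and 1.09 without wild type 2. Ddx6, a repressor of translation and a decapping factor, had 39, 45 and 65 counts against 47 and 46 (-0.06, SE 0.24). Ddx1, a helicase of tRNA ligation and RNA transport, had 7, 7 and 6 counts against 12 and 10, without overlap and without passing the test (-0.85, SE 0.57, edgeR adjusted p = 0.331).

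Ddx49, a helicase of ribosome assembly, had 103, 131 and 124 counts in the knockout against 96 and 99 in wild type libraries (log2 fold change 0.15, SE 0.16). Of its exon bases 874 lie opposite exons of Homer3, a scaffold protein gene. Homer3 had 46, 46 and 60 counts against 34 and 37. Expected counts of both genes were whole in every library. Without the strand setting, whether each read went to the right gene of the pair was not tested. At least 100 exon bases opposite another gene were found for 14 of the 50 tested members. All Ddx genes summed to 2463 ± 146 CPM (SD, n = 3) in the knockout and 2631 ± 113 (SD, n = 2) in the wild type, a ratio of 0.936.

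Of the 16 genes with a Dhx symbol 4 were tested and 0 passed, and 0 had an unadjusted p under 0.05 in edgeR. Dhx15, which takes apart the spent spliceosome, had 12, 14 and 16 counts in the knockout against 12 and 12 in wild type libraries (log2 fold change 0.07, SE 0.42). Dhx9, RNA helicase A, which unwinds long duplexes, had 15, 12 and 18 counts against 19 and 11 (-0.14, SE 0.39). Dhx30, a helicase of the mitochondrial ribosome, had 23, 12 and 15 counts against 10 and 11. Knockout 1 alone stood high, at 0.52 on the log2 scale (SE 0.42, edgeR adjusted p = 0.442). Dhx38, the helicase of the second step of splicing, had 13, 7 and 4 counts against 14 and 12, with no overlap in CPM and a wide spread within the knockout (-0.83, SE 0.47, edgeR adjusted p = 0.237). Dhx32 had 10, 7 and 11 counts against 10 and 7 and was not tested. The family summed to 499 ± 72.4 CPM (SD, n = 3) against 458 ± 76.5 (SD, n = 2), a ratio of 1.09 that was 0.974 without wild type 2.

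Depth left 51 members untested, with 1 to 50 counts summed over the 5 libraries (median 18), where the tested members had 37 to 894 (median 90.5). Of the untested members 32 were listed in all 5 libraries, 3 were at 0 in both wild type libraries and 0 were at 0 in all knockout libraries. The limit for a count of 0, taken as 3 counts, was 12.1 to 15.9 CPM in the 5 libraries. The Poisson interval excluded 1 in 3 of the 51 untested members, and the share over all untested genes was not taken. With so many 95% intervals, some can exclude 1 where levels do not differ. Besides Snrpf and Snrpg, the member was Ddx51, a helicase of ribosome assembly. It had 1, 4 and 4 counts in the knockout against 6 and 10 in wild type libraries, a ratio of 0.339 (95% interval 0.132 to 0.814). The interval reached above 1 without knockout 1 or without wild type 2. For the other untested members the interval included 1, so a difference was not detected at this depth.

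Per transcript length, the families ranked from Hnrnp to Dhx genes. Levels between genes are given as FPKM (fragments scaled by transcript length and library size), as means over the 5 libraries with their SD. The median was 26.8 for Hnrnp, 24.9 for Srsf, 16.0 for Snrp, 10.03 for Sf3, 7.99 for Ddx and 5.93 for Dhx genes. Ddx49 was the highest member at 183 ± 21.1 FPKM, followed by Hnrnpab at 118 ± 35.7 and Ddx5 at 99.2 ± 14.6 (SD, n = 5). The level of Ddx49 did not overlap that of the next by their SDs, while Hnrnpab, Ddx5, Srsf5 (92.1 ± 17.6) and Hnrnpa2b1 (83.0 ± 13.0) did not differ from their neighbours beyond their spread. The place of Hnrnpab rests on the knockout libraries, at 170, 132 and 112 FPKM. In the wild type it had 77.4 and 96.2 FPKM, below 100 and below the 89.3 and 111 of Ddx5 in the same libraries. Hnrnpk followed at 73.2 ± 6.71 and Hnrnpul2, of which the counts were highest, at 69.8 ± 4.13. In all, 2 members were at 100 FPKM or more, 57 from 10 to 100 and 42 below 10. The tested members had a median of 19.9 FPKM, close to the 20.7 of all tested genes. Within the Snrp genes Snrpg led at 42.4 ± 38.8 FPKM, an SD set by the few counts behind it. Sf3b5 led the SF3 genes at 22.9 ± 17.0 and Dhx15 the Dhx genes at 14.7 ± 0.878.

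**Figure D5:**
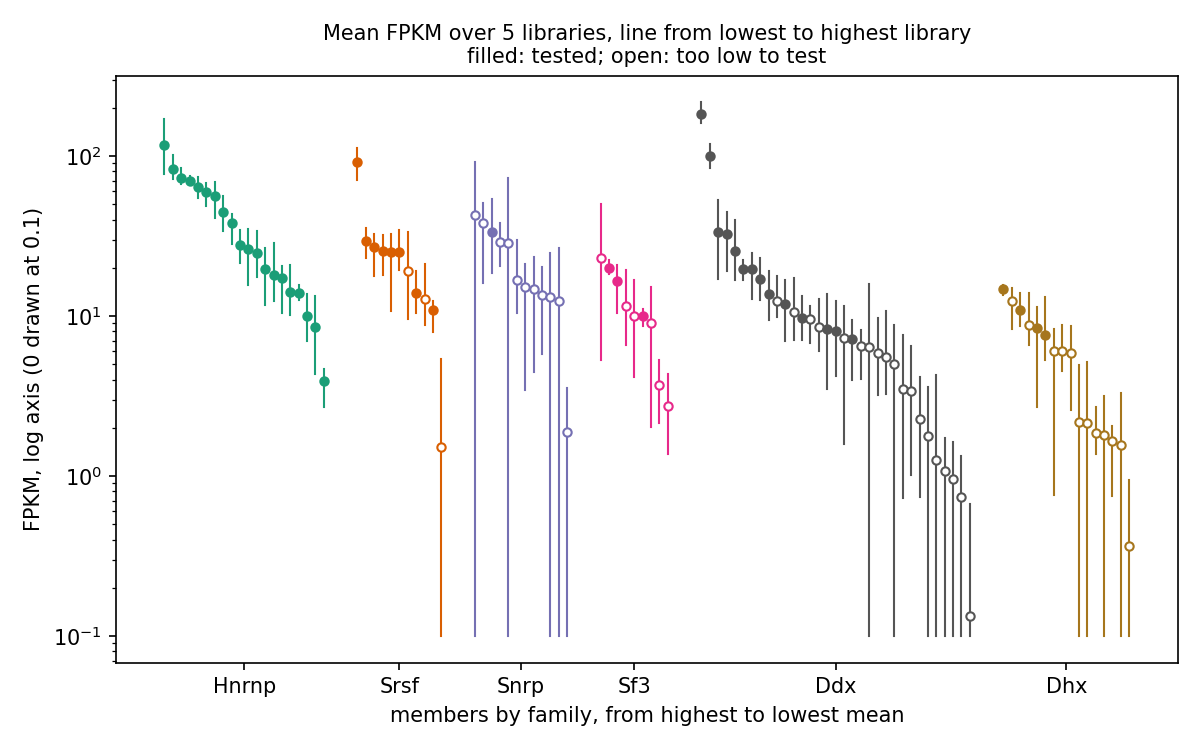
Mean FPKM over the 5 libraries (y axis, log scale, 0 drawn at 0.1) of all 101 members, by family and from highest to lowest (x axis), with a line from the lowest to the highest library and open points for the 51 untested members. Ddx49 at 183 and Hnrnpab at 118 are the members with a mean above 100, Hnrnpab through its knockout libraries.

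A gene's length in RSEM tables is weighted by the abundance of its transcripts. The deposited length was constant in 57 members and varied in 44. Among the 31 tested members that varied and were listed in all 5 libraries, 3 had lengths that did not overlap between the groups, against 16.6% of 1743 tested genes of that kind. All 3 were shorter in the knockout. Ddx17 had 3931, 3953 and 4154 bases in the knockout against 4186 and 4448 in wild type libraries, Hnrnpa1 1816, 1830 and 1816 against 1840 and 1840, and Dhx9 4616.00 to 4616.04 against 4623 and 4616.07. The length rests on the same few counts as the level, and no test was made of it.

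Other genes of the same machinery, in lists that do not use the symbol rule, are given beside the 16.3% called of all tested genes. Among 85 other spliceosome genes 31 were tested, 2 rose, 1 fell and 28 did not pass (9.68% called, median log2 fold change 0.07). Srrm2, a large matrix protein at the core of nuclear speckles, had 36, 48 and 43 counts in the knockout against 64 and 66 in wild type libraries (-0.76, SE 0.23, edgeR adjusted p = 0.00735). Its groups did not overlap. The call was lost with DESeq2 (DESeq2 adjusted p = 0.0681) and with limma on log2 FPKM (limma adjusted p = 0.162). It was also lost without wild type replicate 2, at a log2 fold change of -0.66. Prpf39, a U1 snRNP factor, had 72, 82 and 101 counts against 47 and 49 (0.67, SE 0.20, edgeR adjusted p = 0.00984). Prpf39 too had separate groups. Its call was lost with DESeq2 (DESeq2 adjusted p = 0.0845) and with limma on log2 FPKM (limma adjusted p = 0.0927). The call was also lost without wild type replicate 1 or 2, at log2 fold changes of 0.536 and 0.786.

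Acin1, an RNA-binding protein that accompanies the exon junction complex, had 3279, 3758 and 4643 counts in the knockout against 3115 and 2702 in wild type libraries (0.27, SE 0.10, edgeR adjusted p = 0.0323). That is 1.28% to 1.65% of all counts of a library, more than all 101 members together. The deposited gene (chromosome 14, 54642161 to 54686965) holds 7 transcripts that are not in RefSeq beside 6 that are, and what these add to its count was not established. Leaving out 1 library ended the call for knockout replicate 2 (edgeR adjusted p = 0.152) and 3 (0.243) and for wild type replicate 1 (0.391) and 2 (0.458), and so did no filter (0.0735) and limma on log2 FPKM (0.0687).

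Of 36 alternative splicing regulators and SR protein kinases 33 were listed and 24 tested, with 1 higher and 0 lower (4.17% called, median 0.05). It was Srpk2, a kinase that phosphorylates SR proteins, with 88, 124 and 121 counts in the knockout against 73 and 72 in wild type libraries. Its log2 fold change was 0.47 (SE 0.17, edgeR adjusted p = 0.0468), and it passed the test in 3 of 13 other settings. The call was lost without knockout replicate 2 (edgeR adjusted p = 0.235) or 3 (0.0743) and without wild type replicate 1 (0.425) or 2 (0.191). Of 14 helicases of the same superfamily outside the symbol rule 7 were tested, with 1 higher and 0 lower (14.3% called, median -0.62). The call was Upf1, the helicase of nonsense-mediated decay, with 17, 20 and 20 counts against 8 and 4 (1.503, SE 0.46, edgeR adjusted p = 0.0106). The groups did not overlap. The call of Upf1 was lost without wild type replicate 1 or 2, at log2 fold changes of 1.965 and 1.173. It was also lost with limma voom (limma adjusted p = 0.145) and, narrowly, with limma on log2 FPKM (limma adjusted p = 0.0500011). Of the 7 tested, 5 had negative fold changes. The largest in size was that of Ascc3, a helicase of alkylation repair and ribosome rescue, with 4, 4 and 2 counts against 11 and 12 (-1.89, SE 0.76, edgeR adjusted p = 0.0678). With RLE scaling, with limma on log2 FPKM and without knockout replicate 1, 1 gene of this list was called lower. Srpk2, Ascc3, Ifih1 and Upf1, like Znfx1 and the untested or uncalled members outside the naming rule, were chosen after their values were seen.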

How the data were processed

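Total RNA of cultured marrow stem cells was sequenced as 5 Illumina libraries, per the labels. Each deposited table gives, per the file headers, a gene's length in bases, its expected count (an estimate that can share a read between genes) and its FPKM. Per the submitters' processing notes the build was mm10 and the tools RSEM, Bowtie2, HISAT2 and StringTie. Versions, roles and the strand setting are not given in the sources used here.

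Genes absent from a table count as 0 there. Of the listed expected counts 93.8% to 94.2% were whole within 0.005, and all were rounded. The test was edgeR 4.0.16 in R 4.3.3 (filterByExpr with minimum count 10 and minimum total 15, TMM, robust quasi-likelihood fit, genotype as the term, Benjamini-Hochberg adjustment at 0.05). It was tested on simulated data. Levels are CPM, with tested genes' totals scaled by TMM, and the SE of a fold change comes from the quasi-likelihood F. The limit for 0 is 3 counts. Alternatives were RLE and no scaling, no filter, a minimum count of 20, DESeq2 1.42.0, limma 3.58.1 (voom, and trend on log2 of deposited FPKM + 1), a replicate block and each library left out.

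Members and gene lists were chosen with earlier results of these data known. Named genes are Arntl, every called member, the 3 highest by FPKM and the tested extremes of each family, and called genes of the spliceosome list. Coordinates are from RefSeq (GRCm38.p6); 100 of 101 members matched exons of GENCODE M21.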

Additional observations from a re-analysis of the deposited data

How the results depend on the processing

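The 3 called members came to 3 with RLE scaling, no scaling, a minimum count of 20 and limma voom, to 1 with no filter, DESeq2 and the replicate block, and to 0 with limma on FPKM. With 1 library left out they came to 0 to 2 (0 without wild type replicate 1, 1 without wild type replicate 2 and without knockout replicate 3). The 3 called genes of the other spliceosome list came to 1 with DESeq2 and 0 with limma on FPKM, and to 0 to 3 with 1 library left out. Over all genes 606 were called, 280 with DESeq2, 342 with limma on FPKM, 441 with the replicate block and 298 to 610 with 1 library left out (298 and 299 without wild type replicate 1 or 2). The median of the members moved from -0.03 to 0.044 with no filter, where that of all genes was 0.088; alternatives for this median other than the scalings were chosen after seeing the data. Of 295 log2 fold changes of 24 named genes, 263 stayed on their side of the threshold and 32 lost the call. A gene that was not called had no call to lose, so all 32 losses fell on called genes. Of 13 other settings, the call stayed in 11 for Hnrnpab and in 5 each for Ddx27 and Ddx60. It stayed in 10 for Srrm2, 9 for Prpf39 and 6 for Acin1. Srpk2 (3 of 13) and Upf1 (7 of 11) were called but lie outside this tally. Among called values 0 changed sign, while 17 values that were not called did. Deviations from the group mean were near uncorrelated between same-numbered libraries (r = -0.01 and 0.03 across genes, which are not independent replicates). With 2 wild type libraries, whose deviations mirror each other, and few counts per gene, this cannot exclude a pairing. Whether the replicate numbers pair the libraries was not established. With the replicate block as a term the calls of Ddx27 (edgeR adjusted p = 0.104), Ddx60 (0.136), Acin1 (0.430) and Srpk2 (0.0721) were lost. With 2 wild type libraries and a median of 90.5 counts in 5 libraries per tested member, depth limits what can be seen in the helicase and Sm genes, and 16 members had no adjusted p in DESeq2.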
